A study of Drosophila melanogaster with 27 samples.

Results

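The late prepupa, 10 h after pupariation, was compared with the early prepupa, 4 h after pupariation, in whole *w1118* animals. The comparison took 6 of the 27 arrays of a metamorphosis time course, chosen by the stage given in their labels, with 3 arrays of 4 h prepupae and 3 of 10 h prepupae. The 6 arrays of 6 h and 8 h prepupae were used to follow the path between both ends. Each sample was RNA of 10 animals of this one strain with no treatment, so the labels of both groups differ by the staged hour alone. RNA came from the whole animal, so fewer cells of a type and less RNA per cell cannot be told apart.

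Pupariation turns the larval cuticle into the puparium. The epidermis then separates from it and secretes the pupal cuticle, a layer of chitin fibres bound by structural proteins of the CPR (Rebers-Riddiford chitin-binding), Tweedle and related families. The steroid 20-hydroxyecdysone (20E) is low in mid prepupae and rises again late in the prepupal period. The nuclear receptor *ftz-f1* is expressed in the interval between both pulses, and the Edg (ecdysone-dependent) genes of imaginal discs and epidermis are classic markers of pupal cuticle formation in *Drosophila*.

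Array medians were 255.8 to 258.0 intensity units at 4 h and 252.4 to 259.8 at 10 h. The 4 h arrays correlated with each other across probe sets at 0.989 to 0.994, the 10 h arrays at 0.992 to 0.993 and the 6 h arrays at 0.964 to 0.991. The gene *ftz-f1*, expressed between both pulses, had its highest mean of the 9 stages at 8 h. This is neither of the stages compared, so it does not check the labels of 4 h and 10 h. The fat body was present in both groups. *Fbp1*, a fat body receptor for serum protein, had mean intensities of 19690 at 4 h and 15210 at 10 h, and none of the 5 larval serum and fat body genes was called. The log2 change of *Fbp1* was -0.37 (adjusted p = 0.000187 in limma), under the fold limit, and at 4 h its signal was near the highest of those arrays (19429 to 20073). None of the 23 genes of the testis list passed either, a list that takes in genes named Mst whatever their tissue. Over all tested probe sets, 13.7% were called at 10 h against 4 h. The summed intensities below are of the testis list. These were 19787 to 23291 in the 4 h arrays and 18958 to 25109 in the 10 h arrays.

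Calls required an adjusted p under 0.1 in limma (Benjamini-Hochberg) together with a change of at least 1.5-fold. At 10 h against 4 h, 1763 of 12854 tested probe sets were called, 13.7% of them. Of these, 728 (5.66%) were higher at 10 h and 1035 (8.05%) were lower. Among the probe sets called higher, 164 rose at least 4-fold and 40 at least 16-fold, whereas 77 and 10 of those called lower fell as far. The median log2 change of all tested probe sets was 0.02, and the arrays of both stages did not overlap in 54.3% of them.

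Genes of the cuticle were prominent among the increases. Over the 4 lists of cuticle proteins, 38 of 91 measured genes (41.8%) were higher at 10 h and 3 were lower, beside 5.66% and 8.05% of all tested probe sets. The increases reached at least 4-fold for 23 of them. The lists were not independent of these data, since the study displayed Edg genes from the same samples.

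**Figure D1:**
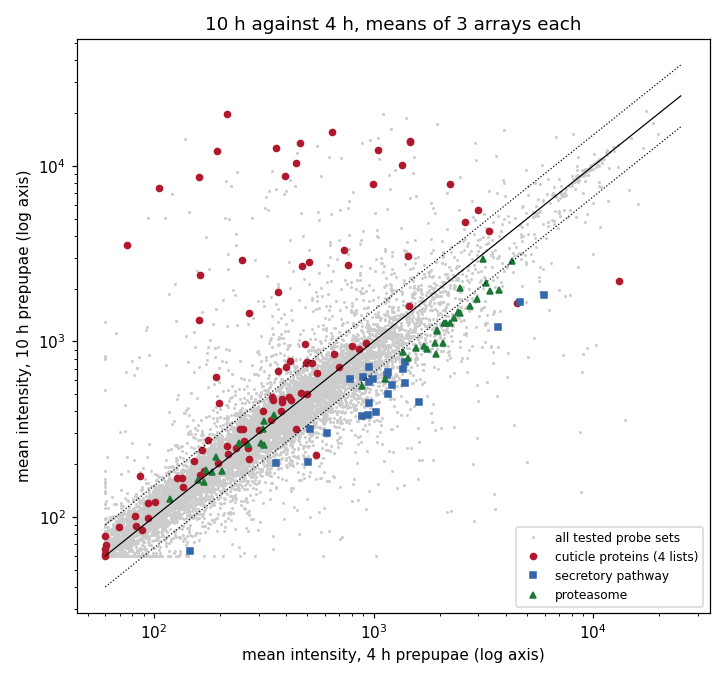
Mean intensity at 4 h (horizontal) and 10 h (vertical), both on log axes, for all tested probe sets (grey), genes of the 4 cuticle protein lists (red circles), secretory pathway (blue squares) and proteasome (green triangles). The solid line marks equal means and the dotted lines 1.5-fold. Of the cuticle genes, 38 of 91 were called higher at 10 h, and 22 of 25 secretory pathway genes were called lower.

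Of the pupal cuticle genes proper (Edg, Ccp84 and *Pcp* with the adult cuticle genes listed beside them), 7 of 11 rose and none fell, with a median log2 change of 2.90. *Edg78E*, a pupal cuticle protein, had intensities of 116.8, 110.8 and 89.0 at 4 h and 6971, 6915 and 8401 at 10 h. It rose 70.6-fold (log2 change 6.14, SE 0.17; limma adjusted p = 1.08e-17). *Edg91*, a glycine-rich cuticle protein, read 161.2, 154.6 and 165.8 at 4 h and 9209, 8325 and 8510 at 10 h, a 54.1-fold increase. *Edg84A* read 669.9, 630.1 and 635.8 at 4 h and 15718, 14769 and 16322 at 10 h, a 24.2-fold increase. In none of these genes did an array of one stage approach those of the other.

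*Edg84A* lies at the end of a run of cuticle genes that continues with *Ccp84Ag* to *Ccp84Aa*. The 3 nearest measured genes rose as well. *Ccp84Ag* went from 405.4, 378.2 and 397.2 to 9563, 7915 and 8679, a 22.1-fold increase. *Ccp84Ae* rose 3.53-fold and *Ccp84Ad* 7.90-fold, the latter on a probe set marked as shared by a gene family. The next gene, *Ccp84Ac*, read 640.8, 538.1 and 483.9 at 4 h and 694.2, 638.7 and 643.3 at 10 h and did not pass the test (adjusted p = 0.327 in limma). *Pcp*, a pupal cuticle protein, rose 7.49-fold from 1408.3, 1334.5 and 1290.0 to 10186, 9516 and 10505. *Acp1*, *Acp65Aa* and *resilin*, which belong to adult cuticle, had log2 changes of 0.05, 0.07 and 0.11 and did not pass.

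**Figure D2:**
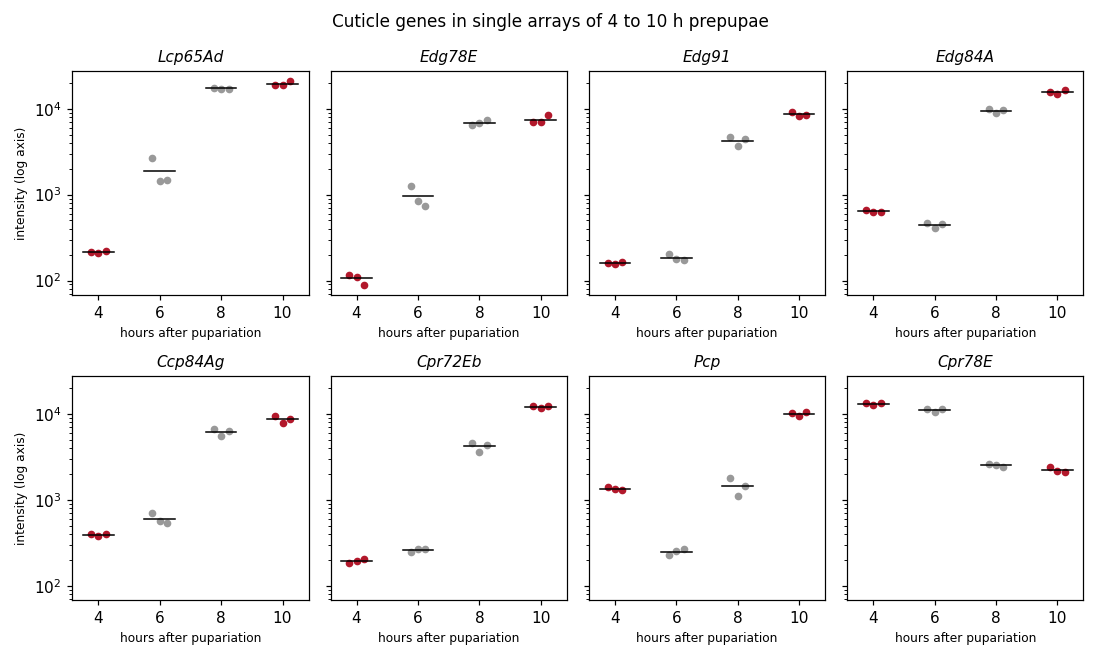
Intensity (log axis) in each array of 4, 6, 8 and 10 h prepupae for 8 cuticle genes, with 4 and 10 h arrays in red, 6 and 8 h arrays in grey and stage means as black bars. In 7 of the genes the 10 h arrays lie above the 4 h arrays, and in *Cpr78E* they lie below; *Pcp* was lower at 6 h than at 4 h.

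Members of the Lcp list, named for larval cuticle, gave 3 increases of 5 measured. *Lcp65Ad* had the largest fold among called probe sets with 1 symbol. Its intensities were 216.3, 210.2 and 222.4 at 4 h and 18965, 18963 and 21057 at 10 h, a 90.8-fold increase (log2 change 6.50, SE 0.19; limma adjusted p = 1.67e-17). The highest values of any probe set on the 10 h arrays were 19317 to 21306, and whether this probe set was saturated there was not tested. *Lcp65Ac*, of the same gene cluster, rose 14.7-fold and *Lcp65Af* 2.26-fold. *Lcp65Aa* of that cluster (log2 change 0.23) and *Lcp9* (0.11) did not pass.

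Of 56 measured genes with the prefix Cpr, from the CPR family, which holds most chitin-binding cuticle proteins, 21 rose, 3 fell and 32 did not pass. Their median log2 change was 0.35. Among all tested probe sets, 5.66% rose and 8.05% fell. Genes of the family under other names are not in this list. *Cpr72Eb* read 182.5, 194.6 and 207.3 at 4 h and 12230, 11614 and 12506 at 10 h, a 62.3-fold increase. *Cpr47Ec* rose 46.4-fold from 72.8, 74.7 and 80.2 to 3819, 3486 and 3276. *Cpr65Ec* rose 29.3-fold, *Cpr78Cc* 23.2-fold, *Cpr100A* 11.8-fold, *Cpr51A* 9.41-fold and *Cpr64Ad* 9.38-fold. The Cpr genes did not move as a block, since neighbours such as *Cpr47Eb* (log2 change 0.07) and *Cpr78Cb* (0.11) did not pass.

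The Cpr genes that fell were *Cpr78E*, *Cpr12A* and *Cpr47Ee*. *Cpr78E* read 13346, 12707 and 13336 at 4 h and 2391, 2154 and 2096 at 10 h, a 5.94-fold decrease (log2 change -2.57, SE 0.31; limma adjusted p = 1.14e-06). *Cpr12A* fell 2.72-fold and *Cpr47Ee* 2.41-fold.

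Tweedle proteins, a second family of cuticle proteins that shape the insect body, gave 7 increases of 19 measured genes and no decrease, with a median log2 change of 0.34. *TwdlE* read 403.5, 327.6 and 351.3 at 4 h and 13030, 12130 and 12779 at 10 h, a 35.2-fold increase. *Twdlbeta* rose from a mean of 252 to 2898. *TwdlT* rose 5.11-fold by its brighter probe set, from 382.0, 361.7 and 359.2 to 2298, 1845 and 1561, whereas a second probe set of the gene changed by 0.55 on the log2 scale and was not called. *TwdlC*, *TwdlO* and *TwdlJ* rose 1.84- to 1.87-fold, whereas a second *TwdlJ* probe set changed by 0.19 on the log2 scale and was not called.

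The enzymes and binding proteins of chitin moved in both directions. Of 31 measured genes, 13 rose, 4 fell and 14 did not pass (median log2 change 0.26). Among all tested probe sets, 5.66% rose and 8.05% fell. The increase of *verm* was lost with quantile normalization (log2 change 0.36, adjusted p = 0.155 in limma), and that of *obst-H* with a higher floor for low values (0.22). The decrease of *fdl* was lost in several alternatives, among them without 4 h replicate 1 (-0.41). The chitin synthase gene *kkv* did not pass (log2 change 0.26), whereas *mmy*, which makes the UDP-N-acetylglucosamine used by the synthase, rose 3.26-fold from 2170, 2166 and 2138 to 7481, 6627 and 6992. Among chitin deacetylases, *Cda4* read 813.0, 799.8 and 810.4 at 4 h and 8316, 5986 and 7077 at 10 h, an 8.74-fold increase, and all 4 tested probe sets of the gene rose. *Cda5* rose 4.79-fold by its brighter probe set and by 0.69 on the log2 scale by the other, and *serp* rose 2.13-fold. Of the chitin-binding obstructor proteins, *obst-E* rose 22.9-fold by its brighter probe set and by 1.25 on the log2 scale by the other. The gene *obst-B* rose 2.60-fold and the related *Gasp* 2.23-fold.

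Chitinases split. *Cht10* read 1966, 1802 and 1813 at 4 h and 218.8, 219.3 and 197.7 at 10 h, an 8.78-fold decrease, and its 3 tested probe sets all fell. *Cht5*, a chitinase that degrades old cuticle at molts in other insects, fell 4.08-fold from 7466, 7100 and 7658 to 1811, 2023 and 1628. *Cht4* fell 1.65-fold. *Cht8* rose 7.58-fold from 135.4, 136.9 and 148.2 to 999.9, 1306 and 915.1, and *Cht7*, *Cht2* and *Cht9* rose 1.61- to 2.35-fold.

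Apical matrix genes encode zona pellucida domain proteins, which tie the epidermal surface to the cuticle, and Osiris proteins, a family of membrane proteins of cuticle-secreting cells. Of 30 measured, 5 rose, 8 fell and 17 did not pass, beside 5.66% higher and 8.05% lower among all tested probe sets. *Osi7* read 4244.8, 3556.5 and 5234.1 at 4 h and 331.3, 333.7 and 340.6 at 10 h, a 12.8-fold decrease (log2 change -3.68, SE 0.17; limma adjusted p = 1.15e-13). *Osi15* fell 7.59-fold, *Osi20* 2.36-fold, *Osi24* 2.08-fold and *Osi6* 1.97-fold. In the same gene cluster *Osi2* rose 5.15-fold, from 257.8, 253.1 and 321.3 to 1293, 1640 and 1351. The zona pellucida domain genes *neo* and *mey* fell 6.81- and 5.25-fold, while *zye* and *pio* rose 3.43- and 2.53-fold. The related gene *dy*, outside the list, fell 20.8-fold from 2438, 1996 and 2341 to 108.6, 108.0 and 108.0.

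Tanning enzymes make and convert the catecholamines that harden and colour cuticle, and their list also held genes of the yellow family. Of 21 measured, 3 rose and 3 fell, where 5.66% and 8.05% of all tested probe sets did. The gene *ple*, for tyrosine hydroxylase at the head of the pathway, fell 5.65-fold from 3504, 3314 and 3081 to 542.2, 658.9 and 554.7. *Ddc*, for the next enzyme, dopa decarboxylase, rose 2.16-fold from 448.8, 370.6 and 351.5 to 906.8, 895.9 and 722.7. Of the yellow family, *yellow-e2* and *yellow-h* rose 2.29- and 2.67-fold and *yellow-e* fell 1.63-fold. The other decrease was ebony (gene symbol *e*), described below.

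**Figure D3:**
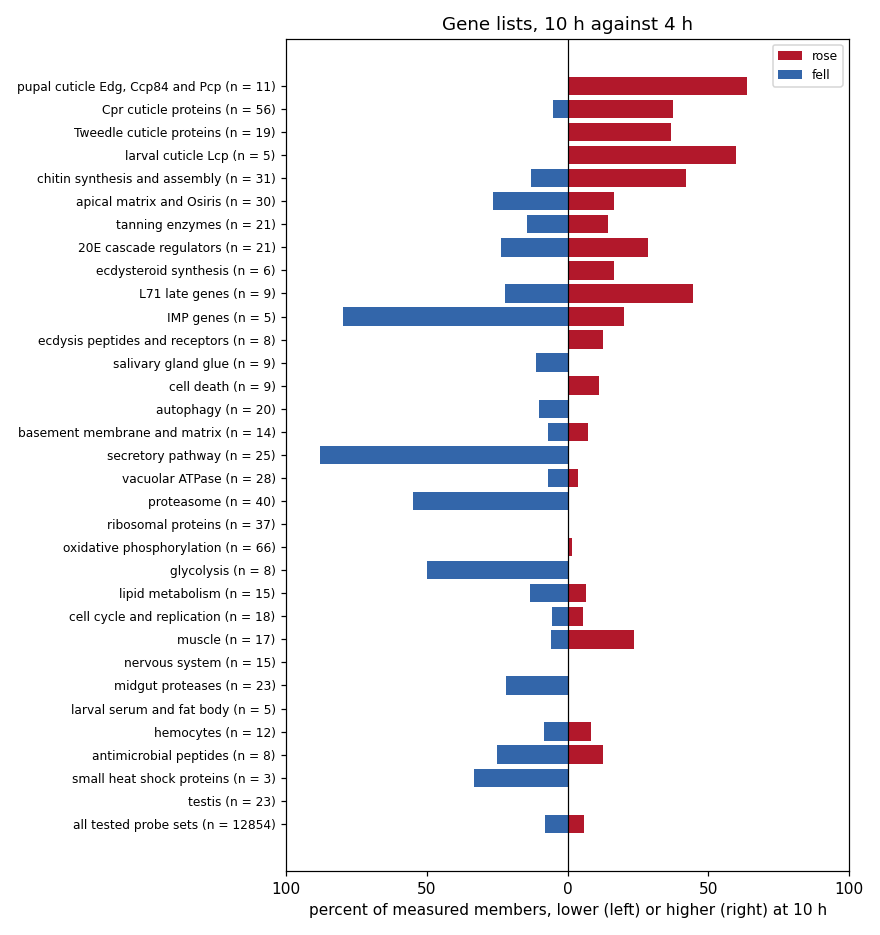
Percent of the measured members of each gene list called lower (blue, left) or higher (red, right) at 10 h than at 4 h, with the number measured in brackets and all tested probe sets in the bottom row. The secretory pathway and proteasome lists have bars to the left only, and 3 of the 4 cuticle protein lists have bars to the right only.

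Of 21 measured genes of the 20E cascade, 6 were higher at 10 h, 5 lower and 10 not passed, beside 5.66% higher and 8.05% lower among all tested probe sets. *Sox14*, an early-response transcription factor, read 1110, 1127 and 1049 at 4 h and 2976, 2530 and 2840 at 10 h, a 2.54-fold increase (log2 change 1.34, SE 0.09; limma adjusted p = 7.44e-11). The zinc finger gene *cbt* rose 3.22-fold from 463.0, 541.3 and 453.6 to 1823, 1433 and 1453. The translational repressor gene *brat* rose 2.14-fold and *CG11275*, listed with the 20E-responsive regulators, 2.09-fold. At 8 h the means of *Sox14*, *brat* and *CG11275* were 697.2, 730.5 and 141.6, no higher than at 4 h, where they were 1095, 894 and 143. *Eip93F* read 360.1, 435.0 and 431.2 at 4 h and 895.1, 855.4 and 697.0 at 10 h (adjusted p = 0.0853 in limma), and this call was lost without any 1 of the 6 arrays, with adjusted p of 0.117 without 10 h replicate 3 to 0.232 without 4 h replicate 1.

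The competence factor *ftz-f1* rose 2.79-fold, from 107.1, 66.4 and 111.6 at 4 h to 274.8, 233.3 and 269.8 at 10 h, after a mean of 1236 ± 105 (SD, n = 3) at 8 h. Its regulators were lower. *Hr3*, an activator of *ftz-f1*, read 560.6, 523.1 and 225.0 at 4 h and 57.7, 238.8 and 47.9 at 10 h, a 4.24-fold decrease in which 1 array of each stage overlapped. Values under a floor of 60.26, the 10th percentile of all intensities, were set to it before folds were taken, and this applied to 2 of the 10 h arrays here. *Hr3* was the 1 decrease of the 1035 with overlapping arrays, and a second *Hr3* probe set changed by -0.08 on the log2 scale. *Blimp-1*, a repressor of *ftz-f1*, fell 1.59-fold from 637.6, 780.3 and 614.5 to 413.6, 428.4 and 428.0, and its log2 change of -0.56 without 4 h replicate 2 was below the fold limit. *Hr4* fell 1.55-fold and was likewise below the limit without 10 h replicate 1 (-0.55) or 4 h replicate 2 (-0.57). *Cyp18a1*, which inactivates 20E, read 538.4, 448.2 and 372.9 at 4 h and 324.2, 254.2 and 287.9 at 10 h, and lost its call without 4 h replicate 1 or 2 or 10 h replicate 2 or 3 (adjusted p = 0.143 to 0.278 in limma). Without 4 h replicate 2, 2 regulators were called lower in place of 5.

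Both subunits of the 20E receptor were measured. *EcR* read 533.3, 535.0 and 577.4 at 4 h and 530.9, 549.0 and 528.2 at 10 h and was not called (log2 change -0.03, SE 0.10), nor was its second probe set (0.33). Its partner *usp* fell 1.91-fold, from 155.7, 101.1 and 114.0 to 65.9, 57.5 and 65.3, where 1 array lay under the floor. The genes *br*, *Hr39*, *Hr78*, *hry*, *Eip78C*, *vri*, *E23* and *Eip63E* did not pass, with log2 changes between -0.60 and 0.53. *Kr-h1* read 103.4, 83.5 and 55.8 at 4 h and 5.8, 5.0 and 6.8 at 10 h, all of the latter under the floor. It was not called with the floor (log2 change -0.42), and was called lower on log2 of the value plus 16 without one (-2.12; adjusted p = 7.94e-07 in limma).

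**Figure D4:**
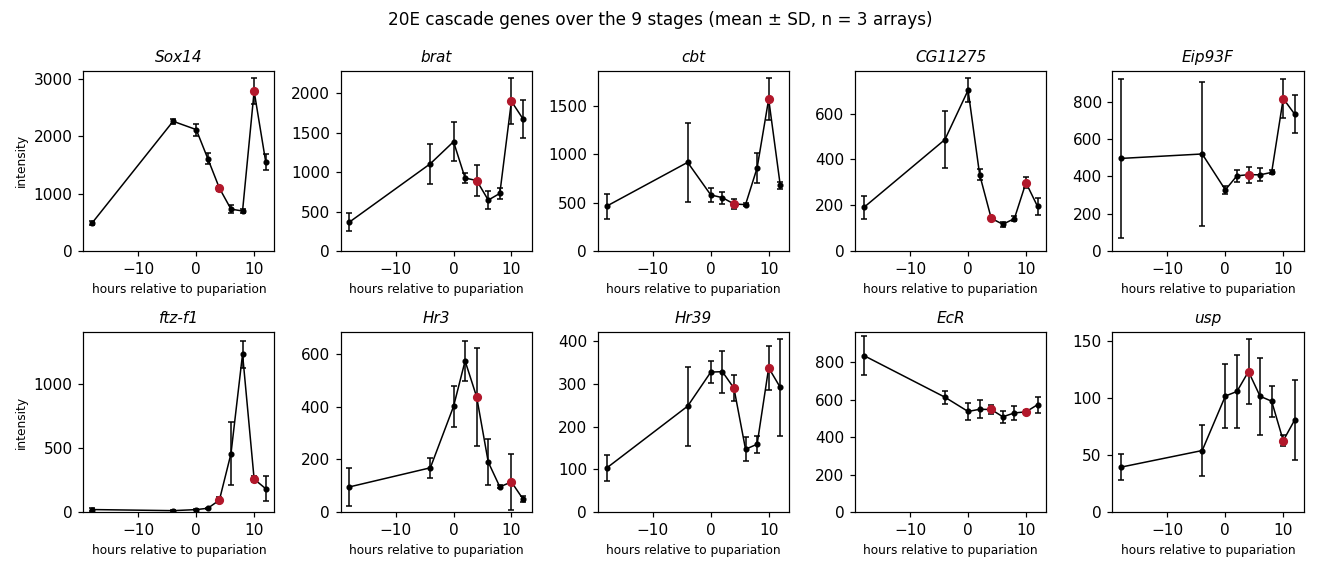
Mean intensity with SD (n = 3 arrays) of 10 genes of the 20E cascade at each of the 9 stages, in hours relative to pupariation, with 4 and 10 h in red. *Sox14*, *brat*, *cbt* and *Eip93F* were at 10 h above their 4 h level, and *ftz-f1* had its maximum of 1236 at 8 h.

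Targets of the earlier 20E pulse moved apart. The L71 (Eig71E) genes encode small secreted peptides of the larval salivary gland. Of 9 measured, 4 rose and 2 fell, beside 5.66% and 8.05% of all tested probe sets. The call of *Eig71Ee* was lost without any 1 of the 6 arrays (adjusted p = 0.134 to 0.179 in limma), which left 3 increases. *Eig71Ef* lost its call without 10 h replicate 2 (log2 change -0.51) or 4 h replicate 3 (-0.58), which left 1 decrease. *Eig71Ek* read 145.8, 53.0 and 83.7 at 4 h and 4472, 4277 and 6318 at 10 h, a 54.8-fold increase, and its neighbour *Eig71Ej* rose 39.7-fold from 287.4, 159.9 and 270.1 to 9204, 8607 and 9833. *Eig71Ea*, at the other end of this gene cluster, read 9779, 10002 and 10104 at 4 h and 10039, 9815 and 11020 at 10 h (log2 change 0.05). *Eig71Eg* fell 1.77-fold.

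Of the IMP genes, which encode membrane-associated and secreted proteins of the imaginal discs, 4 of 5 fell and *ImpL2* rose 2.09-fold. Among all tested probe sets, 8.05% fell and 5.66% rose. *ImpE2* fell 10.2-fold, from 9691, 9107 and 9363 to 1012, 826.5 and 919.3. *ImpE3* fell by 3.17 on the log2 scale, *ImpL1* 8.74-fold and *ImpE1* 1.92-fold. A second *ImpE1* probe set changed by -0.56 on the log2 scale and was not called. The stage means of *ImpE2* were 7928 at 6 h and 4056 at 8 h, between those of 4 h and 10 h.

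Genes of the secretory pathway, which move proteins into and out of the endoplasmic reticulum, were lower at 10 h. Of 25 measured, 22 fell, none rose and 3 did not pass, beside 8.05% lower among all tested probe sets. The median log2 change was -1.09. *SrpRalpha*, among the 22, changed by 0.32 on the log2 scale on a second probe set, which was not called. *Sec61alpha*, the channel of the translocon, read 6123.5, 5799.4 and 6051.0 at 4 h and 2043, 1831 and 1634 at 10 h, a 3.28-fold decrease (log2 change -1.71; limma adjusted p = 2e-06). *Sec61beta* fell 2.76-fold, *Sec61gamma* 3.08-fold and *TRAM* 3.56-fold. Decreases held also for the signal recognition particle (*Srp54k*, *Srp14*, *Srp19*, *Srp68*, *Srp72*) and for 4 coat proteins of the Golgi (*alphaCOP*, *betaCOP*, *gammaCOP*, *deltaCOP*). The median log2 step was -0.25 between 4 and 6 h, -0.18 over the next interval and -0.52 over the last.

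The list of proteasome genes, for the protease that degrades ubiquitinated proteins, gave 22 decreases of 40 measured and no increase (median log2 change -0.68). Among all tested probe sets, 8.05% were lower. Taken by name, the list also held *Prosap*, which is not a proteasome subunit and was not called. *Prosbeta6*, among the 22, changed by 0.36 on the log2 scale on a second probe set, which was not called. All 22 were among the 27 genes whose names do not mark them as R or T copies, and none of the 13 genes named as such copies was called. This division was made after the values were seen. *Rpt2* fell 2.27-fold from 2077, 1880 and 1839 to 875.4, 851.5 and 821.0, and *Rpn12* fell 1.93-fold. In glycolysis 4 of 8 genes fell, among them *Eno* 2.37-fold, *Pglym78* 1.87-fold and *Pgk* 1.63-fold. By contrast none of 37 ribosomal protein genes passed, where 13.7% of all tested probe sets were called, 5.66% of them as higher. Of 66 genes of oxidative phosphorylation only *SdhB*, a subunit of succinate dehydrogenase, was called higher, and that call was lost without 4 h replicate 1 (log2 change 0.57, adjusted p = 0.0867 in limma) or 10 h replicate 3 (0.54).

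Markers of larval tissues were followed beside these changes. Of 23 midgut proteases, 5 fell, where 8.05% of all tested probe sets did, and the list had a median log2 change of -0.06. Their summed intensity was 14512 to 16603 in the 4 h arrays and 7379 to 7818 in the 10 h arrays, and without *Jon65Ai* it was 9999 to 10603 and 7171 to 7633. Without both *Jon65Ai* and *Jon65Aiv* it was 7402 to 8055 and 6158 to 6586. The decrease included the 4 Jon65A genes, which lie side by side. *Jon65Ai* fell by 4.58 on the log2 scale, from 6000, 4490 and 4513 to 207.7, 229.5 and 185.0, and *Jon65Aiv* fell 2.44-fold, *Jon65Aii* 2.27-fold and *Jon65Aiii* 1.70-fold. The fifth, *Jon99Fi*, lost its call without 4 h replicate 1 (log2 change -0.70). Of 9 glue genes only *Sgs7* was called, where 13.7% of all tested probe sets were. That call was lost without 4 h replicate 1 or 3 or 10 h replicate 2 or 3 (log2 change -1.39 to -1.51). The 12 hemocyte genes gave 1 increase, *PPO2* at 2.24-fold, and 1 decrease, *NimC1* at 1.90-fold, where 13.7% of all tested probe sets were called. A second *PPO2* probe set changed by 0.17 on the log2 scale and was not called. None of 15 nervous system genes passed. The part of these tissues in the other changes was not tested.

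The stages between showed when each change took place. For the 728 increases, a median of 11.65% of the log2 change from 4 to 10 h was reached at 6 h and 70.23% at 8 h. Between 8 and 6 h, whose arrays entered the contrast of 10 h against 4 h only through the shared estimate of the spread, 676 probe sets (5.26%) were called, 477 (3.71%) higher and 199 (1.55%) lower. Of the 728 increases, 354 (48.63%) were called higher at 8 h than at 6 h and 2 lower. For the 1035 decreases the medians were 37.06% at 6 h and 64.02% at 8 h, and 162 of them (15.65%) were called lower at 8 h than at 6 h.

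Cuticle genes followed different courses within this window. Stage means of *Lcp65Ad* were 216, 1872, 17280 and 19660 at 4, 6, 8 and 10 h, and those of *Edg78E* were 106, 956, 6846 and 7429. *Edg91* and *Edg84A* were still at 185 and 445 at 6 h and at 4266 and 9516 at 8 h. Of the 38 cuticle increases, 6 were at or past the 10 h mean at 8 h, among them *TwdlE* and *Cpr65Ea*. Another 3 (*Pcp*, *Cpr72Ea* and *Cpr49Ac*) had covered under 25% of the log2 change. *Cpr49Ac* had moved the other way by 8 h, with means of 2992 at 4 h, 1237 at 8 h and 5608 at 10 h. Among all called increases, 23.63% were at or past the 10 h mean at 8 h, and 13.32% had covered under 25%. *Pcp* was 250.2 ± 22.9 (SD, n = 3) at 6 h and 1453 ± 327 at 8 h, and *Cpr72Ea* 290.6 ± 39.4 and 341.2 ± 6.79.

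The mean of 6 and 8 h was then compared with the mean of 4 and 10 h. This contrast called 429 probe sets (3.34%), 272 of them (2.12%) with the higher and 157 (1.22%) with the lower mean at 6 and 8 h. It takes in genes that changed early or late in one direction, such as *Cpr64Ad* (means of 1459, 4466, 11620 and 13640 from 4 to 10 h). In 118 of the 272 and 47 of the 157, the 6 and 8 h arrays all lay on one side of those of 4 and 10 h. The share of all tested probe sets that separated in this way was not counted.

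**Figure D5:**
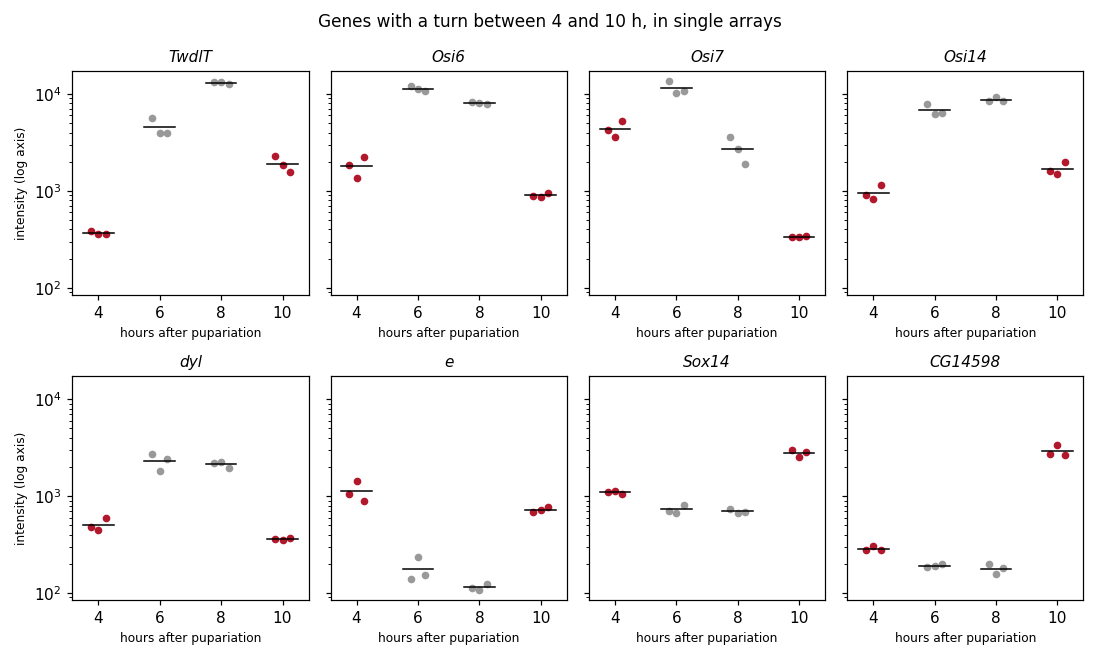
Intensity (log axis) in each array of 4, 6, 8 and 10 h prepupae for 8 genes called at 6 and 8 h against 4 and 10 h, with 4 and 10 h arrays in red, 6 and 8 h arrays in grey and stage means as black bars. *TwdlT*, *Osi6*, *Osi7*, *Osi14* and *dyl* were higher in between on average, and *e*, *Sox14* and *CG14598* were lower.

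Of the 30 apical matrix and Osiris genes, 12 were called with the higher mean at 6 and 8 h and 1 (*pio*) with the lower, and of 19 Tweedle genes 4 were higher, beside 2.12% and 1.22% of all tested probe sets. From 4 to 10 h, *TwdlT* had successive stage means of 368, 4525, 12970 and 1901. *Osi6* went from 1815 through 11310 and 8102 to 902, and *Osi14* from 959 through 6818 and 8733 to 1696. The zona pellucida domain gene *dyl*, needed to shape epidermal hairs, had means of 508, 2322, 2128 and 358 and was not called between the ends. *Osi7* had its highest mean of these 4 stages at 6 h, 11590 ± 1791 (SD, n = 3). The summed intensity of the 30 apical matrix and Osiris genes lay between 20551 and 24363 in the 4 h arrays and between 16675 and 17302 in the 10 h arrays. All 6 arrays between exceeded these, with 50547 to 65614 for the 6 h arrays and 43363 to 48085 for the 8 h arrays.

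Lower between the ends was ebony, for an enzyme that joins dopamine to beta-alanine. Its intensities were 1061.5, 1434.1 and 892.5 at 4 h and 681.9, 714.0 and 768.7 at 10 h, with means of 176.3 ± 52.5 at 6 h and 114.5 ± 8.40 at 8 h (SD, n = 3; log2 change -2.67 against the ends, limma adjusted p = 2.73e-11). Its call at 10 h against 4 h was lost without 4 h replicate 1 or 2 or 10 h replicate 1 or 2, with log2 changes of -0.43 to -0.65. The small heat shock genes *Hsp27* and *Hsp26* were lower in between as well. *Hsp27* had a mean of 2571 at 6 h and 2212 at 8 h, and read 5627, 5335 and 5724 at 4 h and 4962, 5385 and 5330 at 10 h.

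Several of the largest changes lay outside the lists. *Jhbp1*, named for juvenile hormone binding, read 204.9, 248.1 and 218.8 at 4 h and 7896, 6891 and 8123 at 10 h, a 34.1-fold increase, while its mean was 206.1 at 6 h and 189.4 at 8 h, and 1023 in the pupae of 12 h. *EbpIII*, named as an ejaculatory bulb protein, rose 56.8-fold, *CG8927* 45.4-fold, *CG6426* 38.3-fold and *CG13722* 38.1-fold. The largest decreases of probe sets with 1 symbol were those of *CG7906* (62.7-fold), *CG7924* (38.8-fold), *CG8420* (32.0-fold) and *CG11892* (30.1-fold), and *CG7906* read 9181, 8779 and 8328 at 4 h and 132.9, 137.9 and 148.3 at 10 h. *PGRP-SB2*, a peptidoglycan recognition protein, fell 28.6-fold. The serine protease homologue *mas* fell 20.1-fold, the serpin *Spn100A* 13.2-fold and the mucin-related *Mur89F* 10.5-fold. *CG15756*, *CG11816* and *CG9331* fell 14.1-, 10.8- and 10.6-fold.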

How the data were processed

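Per the labels, RNA was isolated from 10 whole animals per sample and hybridized to Affymetrix *Drosophila* Genome Arrays, 1 sample per array. The deposited values are linear intensities that the authors obtained with dChip, which normalizes arrays and summarizes the probes of a set. The use of mismatch probes was not given in the sources. Levels of different probe sets cannot be compared, and the number of arrays, 3 per stage, limits the precision. The study's methods describe independent triplicates.

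Of 13966 probe sets, 12443 carried 1 gene symbol, 327 several and 1196 none, and 12394 were matched by gene number to RefSeq names (Release 6 plus ISO1 MT), used for names and gene order only. A floor of 60.26, the 10th percentile over all arrays, replaced lower intensities before log2. Probe sets above it in all 3 arrays of at least 1 stage were tested (12854; 1112 were left out). The tests were fitted with limma 3.58.1 in R 4.3.3 (lmFit, eBayes) to all 27 arrays with stage as the factor, where the methods used SAM, and were checked on simulated data. Calls needed a Benjamini-Hochberg adjusted p under 0.1 and 1.5-fold. Folds compare geometric means after this floor, and SE are in log2 units. The contrasts were 10 h against 4 h, 8 h against 6 h, and 6 and 8 h against 4 and 10 h. A listed gene was represented by its brightest tested probe set assigned to it alone, and no set test was run.

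Named genes were the largest changes with 1 symbol and no overlap between arrays, called members of the cuticle, chitin, apical matrix, tanning and 20E lists, up to 6 called members of each other list, and genes the study names. The comparison, its lists and this rule were chosen with earlier results of these data known. Some genes outside the rule, such as *Ccp84Ac*, were chosen for description after their values were seen. Same-numbered 4 h and 10 h arrays deviated together (correlations 0.447, 0.216 and 0.317), so a fit with the replicate number as a block was an alternative. The other alternatives were the fit to the stages compared alone, quantile normalization, median scaling, the 20th percentile as floor, log2 after adding 16, no filter, a filter at the 25th percentile, array weights, no fold limit, a 2-fold limit, leaving out each array, and, chosen after seeing the data, leaving out the larval arrays. Figures were drawn with matplotlib 3.10.9.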

Additional observations from a re-analysis of the deposited data

How the results depend on the processing

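Without a fold limit, 3297 probe sets were called at 10 h against 4 h, 1112 at 8 h against 6 h and 1000 at 6 and 8 h against 4 and 10 h, and with a 2-fold limit 794, 358 and 176. Fewer or more are called by the construction of these limits. All other alternatives kept the 3 counts within 1.5 times. Leaving out 1 array gave 1485 (without 4 h replicate 1) to 1803 probe sets at 10 h against 4 h, 597 to 700 and 401 to 450. With the replicate block, 1793, 690 and 431 were called, and the paired fit changed no call of a named gene. Of 175 named probe sets called at 10 h against 4 h, 26 lost the call in at least 1 alternative other than the fold limits, 148 were tested and kept it in all of these, 1 kept it but was not tested in all, and none changed sign. With the 2-fold limit 114 were called and 61 were not. Signal near the floor of 60.26 limits *usp* and other dim genes.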

Other observations

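Muscle genes gave 4 increases and 1 decrease among 17 measured at 10 h against 4 h, beside 5.66% and 8.05% of all tested probe sets, and the list had a median log2 change of 0.06. The increase of *Act88F* was lost without 4 h replicate 1 or 10 h replicate 2 or 3 (adjusted p = 0.129 to 0.203 in limma). *Mp20*, a muscle protein, read 1139, 1075 and 933.0 at 4 h and 3987, 3938 and 3820 at 10 h, a 3.74-fold increase, and *Mlc1*, a myosin light chain, rose 2.45-fold. The summed intensity of the 17 genes was 16662 to 17919 in the 4 h arrays and 19198 to 20715 in the 10 h arrays, and without *Mp20* it was 15729 to 16780 and 15260 to 16728.

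Of 8 measured antimicrobial peptide genes, 1 rose and 2 fell, beside 5.66% and 8.05% of all tested probe sets. *Drsl6* rose 6.37-fold, from 861.2, 1280 and 1421 to 6928, 7594 and 7681, whereas *Drsl5* of the same family fell 4.30-fold and *Def* 2.71-fold. *Drs* itself did not pass, with means of 9467 and 8911. Of 9 cell death genes, only *Buffy* was called, where 13.7% of all tested probe sets were. Its intensities were 208.7, 209.7 and 199.3 at 4 h and 560.6, 504.8 and 501.7 at 10 h, with means of 195.8 at 6 h and 194.4 at 8 h. *CG14598* was another gene with a late change, at means of 190.8 and 178.8 at 6 and 8 h and 2735, 3392 and 2644 in the 10 h arrays.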
